A study of Homo sapiens with 18 samples.

Results

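Enzalutamide, labelled ENZA, was compared with its DMSO vehicle in LNCaP cells, using 6 of the 18 RNA sequencing libraries of the series. The ENZA group was 3 libraries from cells kept for 72 h in 10 µM ENZA, and the DMSO group was 3 libraries from cells kept for 72 h in DMSO alone. LNCaP is a human prostate adenocarcinoma line that grows in response to androgens. All cells were in RPMI with 10% fetal bovine serum, so the androgens present were those of the serum and no hormone was listed as added. The model is 1 line at 1 dose and 1 time. Libraries of 2-77 (1 µM) and P-16 (10 µM), 3 each, were used to see where ENZA differed from other compounds of the series, whose title concerns inhibitors of the BRD7 bromodomain. Nothing in the labels says that replicates came from separate cultures. The p-values set a change against the spread between libraries of a group, estimated over all 18, and that spread may be technical.

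Androgens act on prostate cells through DNA elements known as androgen response elements, which lie near genes such as those of the prostate kallikreins. Enzalutamide is an antiandrogen used against prostate cancer, which blocks the response of cells to androgen. In prostate cancer cells androgen signalling also supports proliferation, lipid synthesis and secretory function, and a set of genes is held down while it is active.

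The stretches just upstream of 5 genes that recur below are shown because the groups they stand for were searched for short motifs. The kallikrein genes KLK3 and KLK2 stand for the androgen-induced genes, and capitals mark the match to GNACA, NNNN and GTNC in a row (N is any base), a relaxed form of the androgen response element that was written with the KLK3 element known. The matches start 169 bases before the KLK3 start and 175 bases before the KLK2 start. PLK1 and CCNB2 stand for the mitotic genes, and capitals mark TTTGAA, the core of the cell cycle homology region (CHR), which starts 29 bases before the start of both genes. CHAC1 stands for the integrated stress response, and capitals mark the reverse complement of TGATGNAA, the composite element bound by ATF4. The bases are those of RefSeq for GRCh38.p14, 250 upstream of each start, on the plus strand of chr19:50854665-50854914 (KLK3), chr19:50873189-50873438 (KLK2), chr16:23678639-23678888 (PLK1), chr15:59104896-59105145 (CCNB2) and chr15:40953221-40953470 (CHAC1).
KLK3: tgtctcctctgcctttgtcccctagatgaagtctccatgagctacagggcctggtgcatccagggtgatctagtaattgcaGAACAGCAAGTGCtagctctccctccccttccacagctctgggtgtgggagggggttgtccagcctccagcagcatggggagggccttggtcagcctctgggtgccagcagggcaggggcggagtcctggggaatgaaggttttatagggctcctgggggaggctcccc
KLK2: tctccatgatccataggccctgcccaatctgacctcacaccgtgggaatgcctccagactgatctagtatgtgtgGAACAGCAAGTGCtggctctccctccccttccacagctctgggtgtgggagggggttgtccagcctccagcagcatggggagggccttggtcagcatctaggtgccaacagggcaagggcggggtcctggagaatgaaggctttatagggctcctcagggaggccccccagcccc
PLK1: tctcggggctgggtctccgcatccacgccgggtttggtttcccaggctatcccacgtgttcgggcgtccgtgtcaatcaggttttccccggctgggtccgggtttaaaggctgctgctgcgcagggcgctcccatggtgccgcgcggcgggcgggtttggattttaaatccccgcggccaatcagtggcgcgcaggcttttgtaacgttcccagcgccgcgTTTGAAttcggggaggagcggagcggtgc
CCNB2: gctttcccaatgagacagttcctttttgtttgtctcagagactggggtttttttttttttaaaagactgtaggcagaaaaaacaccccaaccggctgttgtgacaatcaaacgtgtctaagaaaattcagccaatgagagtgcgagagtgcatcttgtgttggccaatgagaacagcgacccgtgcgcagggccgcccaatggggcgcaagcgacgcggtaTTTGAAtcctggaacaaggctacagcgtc
CHAC1: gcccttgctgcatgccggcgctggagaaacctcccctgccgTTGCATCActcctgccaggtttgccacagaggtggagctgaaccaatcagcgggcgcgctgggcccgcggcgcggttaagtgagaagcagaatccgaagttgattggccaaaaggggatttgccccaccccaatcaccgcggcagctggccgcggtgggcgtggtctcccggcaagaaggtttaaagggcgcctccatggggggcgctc

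The motifs were looked for on both strands in RefSeq windows of 300 bases, from 250 before to 50 after a start, which matched 11726 of the 15422 genes tested. The relaxed androgen element was present in 4 of 45 windows of androgen-induced genes (8.89%), against 1.69% of the windows of all genes tested. The holders were KLK2, KLK3, CENPN and GNMT. The pattern was written with the KLK3 element known, and KLK2 has the same 13 bases, so neither is an independent match. It was in 7 of 223 windows (3.14%) of genes that fell at least 2-fold with ENZA. For genes that rose at least 2-fold it was in 3 of 191 (1.57%). TTTGAA was present in 25 of 34 windows of mitotic genes (73.5%), in 1 of 35 windows of DNA replication genes (2.86%) and in 9.6% of all windows. TGATGNAA was present in 5 of 19 windows of integrated stress response genes (26.3%), those of ATF3, CHAC1, ASNS, SLC3A2 and FGF21, and in 1.72% of all windows. A match describes the letters only and shows no binding.

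The deposited values were estimated read counts per gene, from 21244728 to 36975052 per ENZA library and from 17210743 to 22611573 per DMSO library. The levels given here are counts per 1e6 reads counted (CPM) scaled between libraries, which allow one gene to be compared across libraries but not one gene with another. Ribosomal RNA genes took 0.65% to 1.71% of the counts of the 6 libraries. The first principal component of the 6 libraries held 73.1% of the variance and placed all 3 ENZA libraries on one side and all 3 DMSO libraries on the other. BRD7 itself had 56.5, 58.3 and 59.5 CPM in ENZA, against 58.1, 59.8 and 54.1 CPM in DMSO, and did not pass the test (edgeR adjusted p = 0.829).

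With ENZA, 5595 of the 15422 genes tested (36.3%) passed an adjusted p of 0.05 in edgeR's quasi-likelihood test, 2811 higher (18.2%) and 2784 lower (18.1%). Few of the changes were large. By size, 279 genes rose and 313 fell by at least 2-fold, while 1076 of the rises and 1086 of the falls were under 1.2-fold. When the test asked for a change beyond 1.2-fold, 1799 genes passed, 891 higher and 908 lower. The median log2 fold change of all genes tested was 0.00. The 3 CPM values of ENZA lay wholly above or below the 3 of DMSO in 49.4% of the genes tested, so a lack of overlap alone is common here, and the counts over gene lists below are to be read against these shares.

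**Figure D1:**
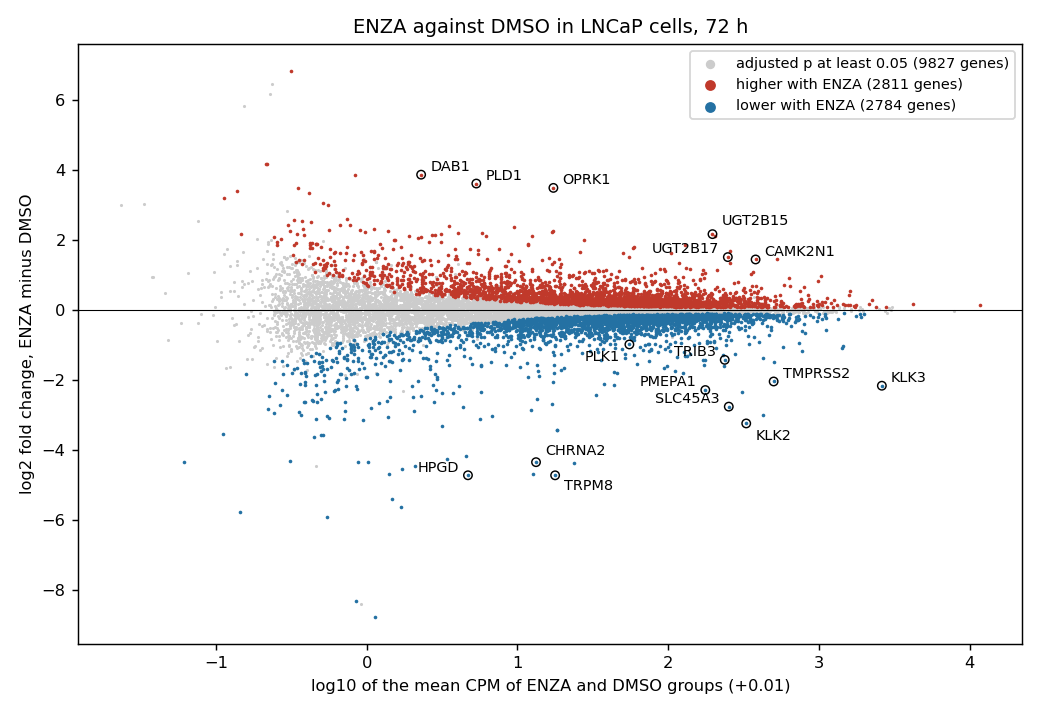
Each point is 1 of the 15422 genes tested, with the log10 mean CPM of the ENZA and DMSO groups on the x axis and the log2 fold change of ENZA over DMSO on the y axis. The 2811 genes higher with ENZA and the 2784 lower lie in similar numbers above and below 0, and the kallikreins and TRPM8 are among the deepest falls at their level; fitted changes of genes near 0 CPM in a group are no measure of size.

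The largest falls included genes of an ion channel, a prostaglandin enzyme and a sialyltransferase. TRPM8, the cold-sensing cation channel of prostate epithelium on chromosome 2 from 233917373 to 234019522, had 1.5, 1.33 and 1.07 CPM in ENZA libraries, against 31.9, 34.7 and 36.2 CPM in DMSO libraries. No ENZA library came near a DMSO library, and the gene fell 26.2-fold (log2 -4.71 ± 0.117 SE, edgeR adjusted p = 1.76e-23, n = 3 each). HPGD, which inactivates prostaglandins, had 0.376, 0.326 and 0.324 CPM in ENZA libraries, against 9.72, 9.20 and 8.20 CPM in DMSO libraries. ST6GALNAC1, a sialyltransferase that builds the sialyl-Tn antigen, averaged 0.974 ± 0.136 CPM in ENZA and 24.4 ± 0.194 CPM in DMSO (SD, n = 3 each). Between the ENZA and DMSO libraries, only those of ENZA were close to 0 for both genes. Other compounds were left out of this comparison.

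Others among the 12 largest falls encode receptor subunits and a transcriptional coactivator. CHRNA2, a subunit of nicotinic acetylcholine receptors, fell by 4.34 on the log2 scale. GRIN3A, a subunit of NMDA glutamate receptors, fell by 3.41, but PPP3R2 lies within its span on the same strand. WWTR1, which encodes the Hippo pathway coactivator TAZ, had 0.517, 0.597 and 0.602 CPM in ENZA libraries, against 6.69, 5.36 and 5.21 CPM in DMSO libraries. ADAM7 (-4.15 ± 0.229), the prostate transcript TARP of the T cell receptor gamma locus (-3.43 ± 0.101), the long noncoding RNA PSLNR (-4.25 ± 0.303) and the pseudogene ZNF812P (-3.10 ± 0.270) also fell. TRIM49D1 fell by 4.35, but it overlaps its near-identical copy TRIM49D2 and the counts of the pair may be mixed.

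The largest rises included genes of an opioid receptor, a phospholipase and a signalling adaptor. OPRK1, the kappa opioid receptor gene on chromosome 8 from 53225716 to 53251697, had 29.2, 33.7 and 32.7 CPM in ENZA libraries, against 1.98, 3.49 and 2.90 CPM in DMSO libraries. The groups were far apart, at an 11.3-fold rise (3.50 ± 0.125, edgeR adjusted p = 1.02e-19). PLD1, which makes phosphatidic acid, had 8.78, 9.93 and 10.8 CPM in ENZA, against 1.11, 0.759 and 0.579 CPM in DMSO. DAB1, an adaptor in reelin signalling, had 3.76, 4.01 and 5.10 CPM in ENZA, against 0.407, 0.101 and 0.357 CPM in DMSO, but OMA1 lies within its span on the same strand, so part of its reads may belong to that gene.

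MID1, a microtubule-associated ubiquitin ligase, had 16.1, 16.2 and 15.8 CPM in ENZA, against 3.03, 2.93 and 3.25 CPM in DMSO, and rose by 2.38 ± 0.118 (log2). PLA2G2A, a secreted phospholipase A2, rose by 2.24 ± 0.098 and VWA2, a secreted protein with von Willebrand factor A domains, by 2.25 ± 0.102. SCNN1B, of the sodium channel of epithelia, rose by 2.17 ± 0.189, and AOC1, which oxidises histamine and other diamines, by 2.16 ± 0.220. DIPK2B rose by 2.41 ± 0.212. KTI12 (2.22 ± 0.356) and FAM131B (2.20 ± 0.158) rose too, but they overlap TXNDC12 and TCAF2, so part of their reads may belong to those genes. The highest adjusted p among the 24 largest changes was 0.000148, for KTI12.

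Androgen-induced genes were lower with ENZA. Of 63 members tested, 52 fell, 4 rose and 7 did not pass, with a median log2 change of -0.97, against 18.1% of all genes tested that fell. KLK3, which encodes prostate-specific antigen and lies on chromosome 19 from 50854915 to 50860764, had 959.4, 961.6 and 962.5 CPM in ENZA libraries, against 4325, 4232 and 4276 CPM in DMSO libraries. The replicates were within a few percent of each other in both groups, and the level was 4.45-fold lower (-2.15 ± 0.033, edgeR adjusted p = 6.27e-29). KLK2, the neighbouring kallikrein on chromosome 19 from 50873433 to 50880567, had 63.3, 64.2 and 62.9 CPM in ENZA, against 609.4, 590.9 and 588.7 CPM in DMSO. Its fall of 9.39-fold (-3.23 ± 0.039) was larger in size than that of KLK3. The same 13 bases are in capitals in both upstream stretches.

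TMPRSS2, a membrane serine protease, had 191.5, 198.4 and 201.2 CPM in ENZA, against 804.8, 809.2 and 804.7 CPM in DMSO (-2.03 ± 0.038). SLC45A3, the sugar transporter known as prostein, had 62.1, 68.4 and 65.3 CPM in ENZA, against 445, 429 and 447 CPM in DMSO (-2.75 ± 0.052). In neither gene did an ENZA library overlap a DMSO library, as in 49.4% of all genes tested. PMEPA1, an inhibitor of TGF-beta signalling, fell by 2.28 ± 0.037, and FKBP5, a cochaperone of steroid receptors, by 0.96 ± 0.044, so that the classical targets spanned falls of less than 2-fold to over 9-fold.

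The 4 members that rose were chosen for mention after their values were seen. ACP3, which encodes prostatic acid phosphatase, had 181.8, 172.6 and 180.7 CPM in ENZA, against 128.0, 132.3 and 132.6 CPM in DMSO (0.44, edgeR adjusted p = 8.36e-10). LIFR, the leukaemia inhibitory factor receptor, rose by 0.40, the luminal keratin KRT8 by 0.16 and the protease ADAMTS1 by 0.11. All 4 rises were under 1.5-fold. KRT18, the partner of KRT8, fell by 0.20 ± 0.036.

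**Figure D2:**
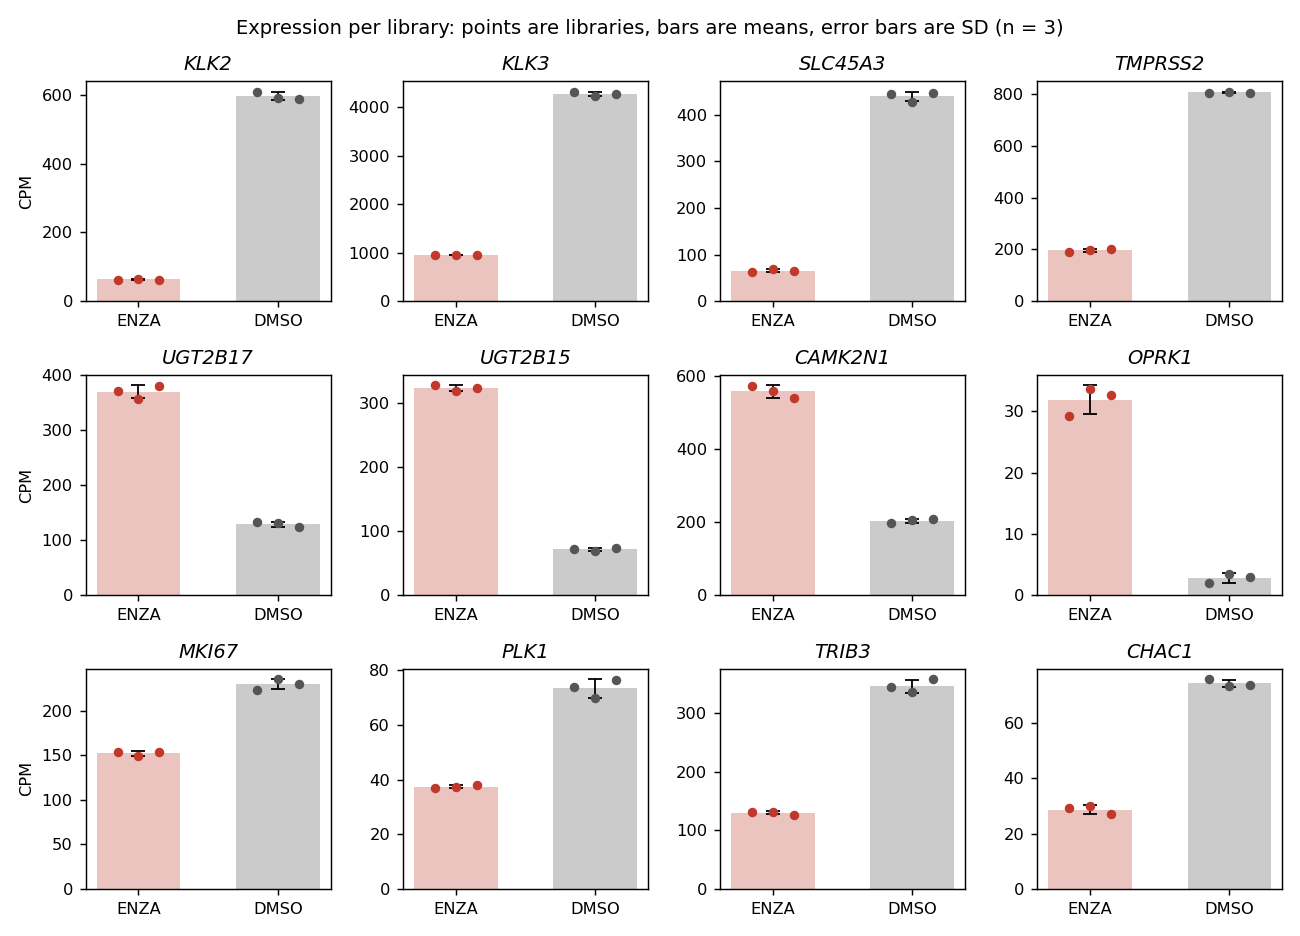
Level in CPM (y axis, from 0) of 12 genes in the 3 ENZA and 3 DMSO libraries; points are libraries, bars the group means and error bars the SD. In all 12 genes the ENZA points lie wholly on one side of the DMSO points, with OPRK1, UGT2B15, UGT2B17 and CAMK2N1 higher and the other 8 lower in ENZA.

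Genes known to be repressed by androgen were mostly higher, but not as a block. Of 25 members tested, 14 rose, 8 fell and 3 did not pass, with a median of 0.79, against 18.2% of all genes tested that rose. UGT2B15, which conjugates androgens to glucuronic acid, had 327, 318 and 323 CPM in ENZA, against 72.3, 68.2 and 73.5 CPM in DMSO (2.18 ± 0.046, edgeR adjusted p = 2.96e-25). UGT2B17 had 371.0, 356.9 and 380.6 CPM in ENZA, against 132.7, 130.3 and 123.3 CPM in DMSO (1.52 ± 0.039). UGT2B28 and UGT2B11 of the same cluster fell (-2.28 ± 0.249 and -0.54 ± 0.077), and reads of such near-identical paralogs may be split between them. CAMK2N1, an inhibitor of the kinase CaMKII, had 574, 559 and 540 CPM in ENZA, against 197, 205 and 209 CPM in DMSO (1.45 ± 0.044). DDC, which makes dopamine and serotonin, rose by 1.65 ± 0.051.

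Genes of androgen signalling, its pioneer factors and coregulators moved in part. Of 22 tested, 8 rose, 4 fell and 10 did not pass (median 0.06), where 18.2% of all genes tested rose and 18.1% fell. The coactivator NCOA3 rose by 0.64 ± 0.052, the chaperone HSP90AA1 by 0.44 ± 0.035 and the pioneer factor GATA2 by 0.38 ± 0.044. FOXA1, a further pioneer factor, had 700.1, 702 and 689 CPM in ENZA, against 671, 669.5 and 695 CPM in DMSO and did not pass (adjusted p = 0.38). HOXB13 passed narrowly (0.13 ± 0.043, adjusted p = 0.0211), and that call was lost when scaling to library totals (adjusted p = 0.056), without ENZA replicate 1 (0.0761) and without DMSO replicate 2 (0.0584).

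Of 16 other nuclear receptor genes tested, 4 rose, 3 fell and 9 did not pass, against 36.3% of all genes tested that passed. PGR, the progesterone receptor, had 3.71, 2.98 and 2.59 CPM in ENZA, against 0.698, 0.607 and 0.802 CPM in DMSO (2.12 ± 0.280, edgeR adjusted p = 4.20e-07). The retinoid receptors RARG and RXRA rose by 0.43 ± 0.074 and 0.25 ± 0.038, and ESRRA fell by 0.20 ± 0.048. NR3C1, the glucocorticoid receptor, stayed between 0.927 and 1.74 CPM in ENZA and between 1.47 and 2.88 CPM in DMSO, and did not pass (adjusted p = 0.122). Of 8 tested targets of the xenobiotic receptor PXR, which enzalutamide is known to activate in liver, 2 rose, 1 fell and 5 did not pass. GSTA1, a glutathione-conjugating enzyme, rose by 0.32 ± 0.079, the carboxylesterase gene CES2 fell by 0.31 ± 0.049, and CYP3A4 had 4 counts over the 3 ENZA libraries and 0 over the DMSO libraries, too few to test.

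Enzymes that lengthen and activate fatty acids were among the larger changes in lipid metabolism. ELOVL7 had 9.68, 11.6 and 9.87 CPM in ENZA, against 54.7, 58.1 and 54.6 CPM in DMSO (-2.41 ± 0.081, edgeR adjusted p = 2.28e-20), and ELOVL5 fell by 1.49 ± 0.053. The acyl-CoA synthetase ACSL3 fell by 0.87 ± 0.050 while ACSL1 rose by 0.53 ± 0.036. Over the fatty acid list, 5 of 23 members tested rose and 11 fell, with a median of -0.01, so the list moved both ways. Shares over all genes tested were 18.2% higher and 18.1% lower.

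Of 26 tested genes of cholesterol synthesis and its regulation, 2 rose, 14 fell and 10 did not pass (median -0.15). Among all genes tested, 18.2% rose and 18.1% fell. SREBF2, which encodes the sterol-sensing transcription factor, fell by 0.40 ± 0.044, FDFT1, the squalene synthase, fell by 0.26 ± 0.039, and TM7SF2, a sterol reductase, rose by 0.51 ± 0.049. Of the 14 falls, 3 passed when a change beyond 1.2-fold was asked for.

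The products that prostate epithelium secretes or carries on its surface split by gene. Of 25 tested, 7 rose, 14 fell and 4 did not pass, with a median of -0.54. Besides the kallikreins, SLC45A3 and TRPM8 above, which fell, FOLH1, which encodes prostate-specific membrane antigen and was picked after its values were seen, had 1889.8, 1893 and 1970.2 CPM in ENZA, against 1326, 1324 and 1301 CPM in DMSO (0.54, edgeR adjusted p = 4.01e-14). Of 20 tested enzymes that convert or conjugate steroids, 3 rose, all of the UGT2B cluster, 4 fell and 13 did not pass. Over all genes tested, 18.2% rose and 18.1% fell.

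Genes of mitosis fell together, by amounts under 2-fold. Of 40 members tested, 39 fell, 0 rose and 1, the mitotic kinase gene CDK1, named here after its value was seen, did not pass. The median was -0.62, against 18.1% of all genes tested that fell. At an unadjusted p under 0.05, 40 were lower and 0 higher, and DESeq2 called 40 lower and 0 higher. PLK1, a kinase that drives mitotic entry and lies on chromosome 16 from 23678889 to 23690367, had 36.9, 37.1 and 37.99 CPM in ENZA, against 73.9, 69.7 and 76.5 CPM in DMSO (-0.97 ± 0.060, edgeR adjusted p = 6.22e-14). It was the deepest fall of the list. CCNB1, the mitotic cyclin, had 93.5, 93.0 and 94.2 CPM in ENZA, against 138, 134 and 137 CPM in DMSO (-0.54 ± 0.038). MKI67, the proliferation antigen Ki-67, had 154, 149 and 154 CPM in ENZA, against 224, 235 and 231 CPM in DMSO (-0.59 ± 0.042), and RACGAP1, needed for cytokinesis, fell by 0.68 ± 0.048. The libraries were made from bulk RNA, so fewer cells expressing a gene and less RNA per cell cannot be told apart.

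DNA replication genes were lower too, with a median nearer 0. Of 40 tested, 31 fell, 0 rose and 9 did not pass in edgeR, with a median of -0.27, and 0 were higher at an unadjusted p under 0.05 or in DESeq2. Over all genes tested, 18.1% fell and 18.2% rose. CDT1, which licenses replication origins, had 32.5, 34.2 and 34.7 CPM in ENZA, against 58.4, 56.5 and 58.2 CPM in DMSO (-0.77 ± 0.061, edgeR adjusted p = 2.04e-11). RRM2, of the reductase that makes deoxyribonucleotides, fell by 0.67 ± 0.048, and TYMS, the thymidylate synthase, by 0.52 ± 0.048. With a change beyond 1.2-fold asked for, 12 replication genes and 37 mitotic genes passed.

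Regulators of the G1 to S transition moved in part. Of 21 tested, 2 rose, 10 fell and 9 did not pass (median -0.18), where 18.2% of all genes tested rose and 18.1% fell. E2F7, a repressor of the E2F family, fell by 1.09 ± 0.092, the late cell cycle activators MYBL2 and FOXM1 by 0.63 ± 0.055 and 0.56 ± 0.046, and E2F1 by 0.47 ± 0.059. CCND1, which encodes cyclin D1, was slightly higher, with 466, 479 and 469 CPM in ENZA, against 429.8, 427 and 441 CPM in DMSO (0.12 ± 0.033, edgeR adjusted p = 0.00408).

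Of 7 tested CDK inhibitor genes, 0 rose in edgeR, at an unadjusted p under 0.05 or in DESeq2, and 2 fell. Over all genes tested 18.2% rose and 18.1% fell, so counts over a list of 7 say little. CDKN1A, which encodes p21, had 261, 260.03 and 255 CPM in ENZA, against 272, 271 and 271 CPM in DMSO and did not pass (edgeR adjusted p = 0.252). CDKN1B, which encodes p27, did not pass either (-0.13 ± 0.068, adjusted p = 0.141), although it did in a fit of only the ENZA and DMSO libraries (adjusted p = 0.00689). CDKN2C and CDKN2D, of the INK4 family, fell by 0.55 ± 0.067 and 0.45 ± 0.104.

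Of 28 tested genes of homologous recombination and the Fanconi anemia pathway, 19 fell, 3 rose and 6 did not pass (median -0.33). Over all genes tested, 18.1% fell and 18.2% rose. FANCI fell by 0.44 ± 0.053, BRCA1 by 0.41 ± 0.057 and the recombination gene XRCC3 by 0.39 ± 0.060. BARD1, the partner of BRCA1, had 217, 219 and 221 CPM in ENZA, against 171, 173 and 159 CPM in DMSO and rose (0.39 ± 0.052, edgeR adjusted p = 1.92e-06), so the partners moved in opposite directions.

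MYC and a list of MYC targets and ribosome biogenesis genes were lower by small amounts. MYC had 385.3, 367.7 and 353.8 CPM in ENZA, against 462.1, 473.2 and 489.5 CPM in DMSO (-0.36 ± 0.042, edgeR adjusted p = 3.60e-08). Of 30 members tested, 23 fell, 0 rose and 7 did not pass in edgeR, with a median of -0.18, and 0 were higher at an unadjusted p under 0.05 or in DESeq2. Over all genes tested, 18.1% fell and 18.2% rose. When more than 1.2-fold was asked for, 2 passed. The polyamine enzymes SRM and ODC1 fell by 0.42 ± 0.041 and 0.26 ± 0.036, and the nucleolar proteins NOLC1 and DDX21 by 0.28 ± 0.035 and 0.27 ± 0.040. In the wider polyamine list 8 of 14 fell and 2 rose, with the arginase gene ARG2 the clearest by p (-0.66 ± 0.040).

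**Figure D3:**
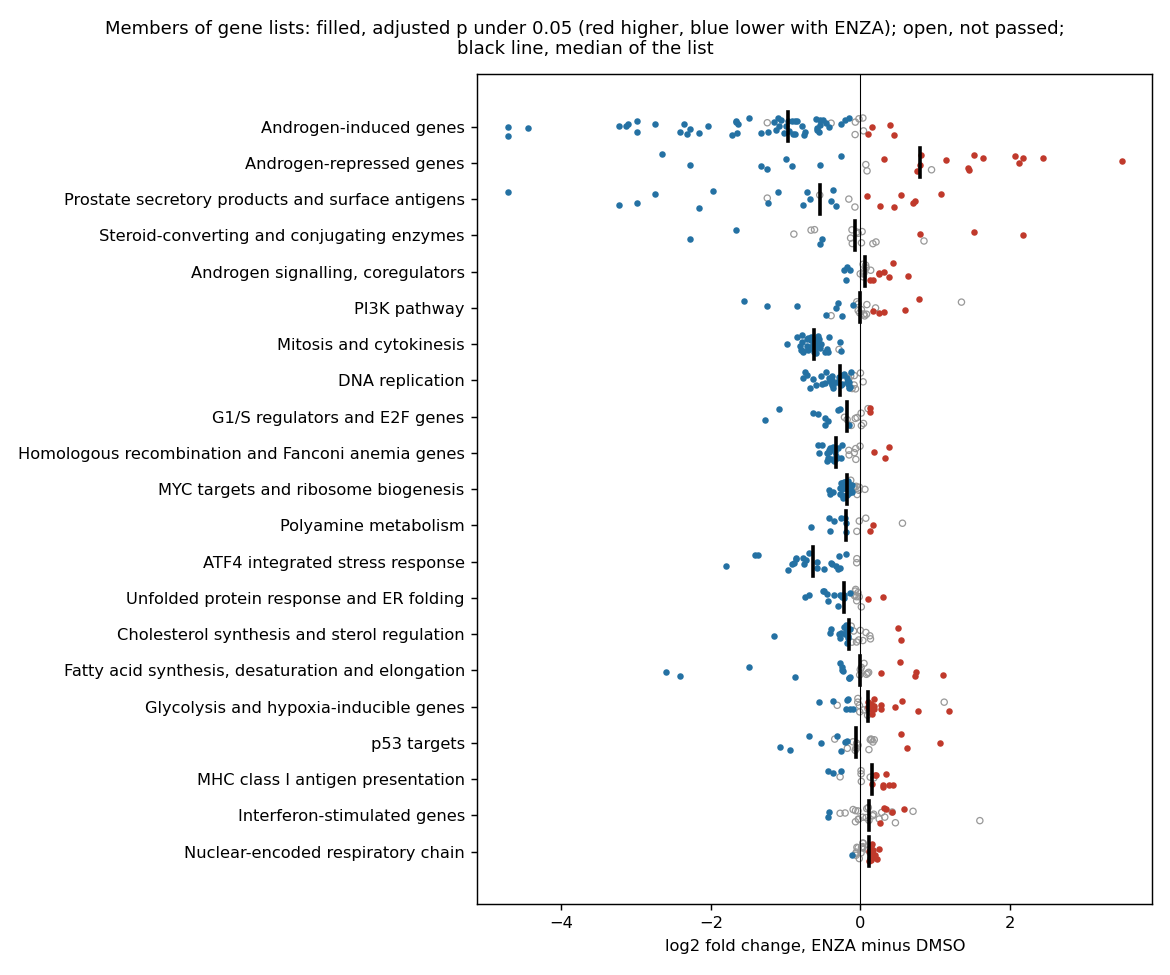
Each row is a gene list and each point a tested member, at its log2 fold change of ENZA over DMSO (x axis); filled points passed an adjusted p of 0.05, red higher and blue lower, open points did not, and black lines are list medians. The androgen-induced list spreads to below -4 around a median of -0.97, while the mitotic genes are packed around -0.62 and the replication genes around -0.27.

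Genes of the integrated stress response, which ATF4 drives when amino acids are short or proteins misfold, were lower. Of 24 tested, 22 fell, 0 rose and 2 did not pass in edgeR, with a median of -0.63, and 0 were higher at an unadjusted p under 0.05 or in DESeq2. Over all genes tested, 18.1% fell and 18.2% rose. TRIB3, a pseudokinase induced by ATF4 on chromosome 20 from 380629 to 397559, had 131.2, 130.9 and 126.6 CPM in ENZA, against 343.7, 335.3 and 357.5 CPM in DMSO (-1.41 ± 0.039, edgeR adjusted p = 1.88e-22). CHAC1, which degrades glutathione, had 29.3, 29.9 and 27.0 CPM in ENZA, against 76.0, 73.4 and 74.0 CPM in DMSO (-1.37 ± 0.063). MTHFD2, of mitochondrial one-carbon metabolism, fell by 0.91 ± 0.041, and STC2, the secreted stanniocalcin, by 0.86 ± 0.035. ATF4 itself, added here after its value was seen, fell by 0.38, a smaller size than in these 4 genes.

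In the unfolded protein response, 14 of 25 genes tested fell, 2 rose and 9 did not pass, with a median of -0.21. Shares over all genes tested were 18.1% lower and 18.2% higher. The falls included ERN1, the endoplasmic reticulum stress sensor IRE1 (-0.68 ± 0.045), its target XBP1 (-0.43 ± 0.035), HERPUD1, of the degradation of misfolded proteins (-0.50 ± 0.042), and CREB3L4, a prostate-rich membrane-bound transcription factor that is also on the androgen-induced list (-0.75 ± 0.049). The chaperone gene CALR rose, with 1367, 1386 and 1427 CPM in ENZA, against 1151, 1128 and 1109 CPM in DMSO (0.30 ± 0.034, edgeR adjusted p = 2.31e-08).

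Glycolysis and hypoxia-inducible genes moved both ways. Of 32 tested, 16 rose, 7 fell and 9 did not pass, with a median of 0.11, and 4 of the rises passed beyond 1.2-fold. Among all genes tested, 18.2% rose and 18.1% fell. EGLN3, an oxygen-sensing prolyl hydroxylase, had 18.5, 17.6 and 18.7 CPM in ENZA, against 10.5, 11.0 and 10.6 CPM in DMSO (0.77 ± 0.076, edgeR adjusted p = 1.63e-09), and the carbonic anhydrase gene CA12 rose by 0.55 ± 0.056. HK2, the inducible hexokinase, had 91.0, 96.5 and 101 CPM in ENZA, against 142, 143 and 137 CPM in DMSO (-0.55 ± 0.042), and VEGFA, the angiogenic growth factor, fell by 0.36 ± 0.039.

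Targets of p53 moved in both directions: of 25 tested, 3 rose, 8 fell and 14 did not pass (median -0.06). Over all genes tested, 18.2% rose and 18.1% fell. SESN1, a stress-induced inhibitor of mTOR signalling, had 236, 233 and 241 CPM in ENZA, against 112, 116 and 111 CPM in DMSO (1.07 ± 0.043, edgeR adjusted p = 1.69e-18). GDF15, a secreted stress cytokine, had 917, 931 and 922 CPM in ENZA, against 1949, 1889.8 and 1995 CPM in DMSO (-1.07 ± 0.046), and SESN2, which is also an ATF4 target, fell by 0.68 ± 0.051. BTG2, an antiproliferative gene, rose by 0.55 ± 0.046. Among 15 tested BCL2 family genes 3 rose and 3 fell: the death-promoting BMF rose by 1.10 ± 0.067 and the protective MCL1 by 0.49 ± 0.041, while the death-promoting PMAIP1 and BBC3 fell by 0.94 ± 0.109 and 0.31 ± 0.076.

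In the PI3K pathway, 5 of 25 genes tested rose, 8 fell and 12 did not pass (median -0.01). The shares over all genes tested were 18.2% higher and 18.1% lower. INPP4B, a lipid phosphatase that restrains AKT, had 8.08, 6.29 and 6.21 CPM in ENZA, against 20.4, 21.4 and 18.3 CPM in DMSO (-1.55 ± 0.115, edgeR adjusted p = 4.17e-12). PIK3R3, a regulatory subunit of PI3K, had 334, 348 and 351 CPM in ENZA, against 198, 197 and 204 CPM in DMSO (0.79 ± 0.034). FOXO3, a transcription factor held in the cytoplasm by AKT, rose by 0.59 ± 0.036. IGF1R, the receptor of insulin-like growth factor, fell by 1.25 ± 0.059.

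The defining markers of luminal prostate cells were present in both groups. EPCAM, an epithelial surface protein, had 105, 101 and 103 CPM in ENZA, against 104, 98.1 and 96.7 CPM in DMSO, and KRT8, KRT18 and HOXB13 were above 250 CPM in every library. The 13 luminal markers summed to 4509 to 4536 CPM in ENZA and 8325 to 8443 CPM in DMSO, a gap mostly of KLK3. Of 12 tested, 2 rose, 5 fell and 5 did not pass, where 18.2% of all genes tested rose and 18.1% fell. Of the basal markers, KRT15 and CD44 had at most 3 counts over a group. The 8 basal markers in the table summed to 70.0 to 72.0 CPM in ENZA and 79.4 to 95.0 CPM in DMSO. Most of this was the integrin gene ITGA6, which averaged 48.0 CPM in ENZA and 65.0 CPM in DMSO. Of 5 basal markers tested, 1 rose, 3 fell and 1 did not pass. The integrin gene ITGB4 rose, with 7.66, 7.76 and 6.30 CPM in ENZA, against 3.67, 4.35 and 3.65 CPM in DMSO (0.90 ± 0.158, edgeR adjusted p = 3.65e-05). The basal keratin gene KRT14 had 0.188, 0.0543 and 0 CPM in ENZA, against 2.10, 1.11 and 1.74 CPM in DMSO. The 7 immune markers summed to 4.59 to 4.94 CPM in ENZA and 7.22 to 7.71 CPM in DMSO, with CD68 making up most of it, and PTPRC, the pan-leukocyte marker, had 2 counts over ENZA and 0 over DMSO libraries. The part that marker genes of other cell types play in the results was not tested.

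Neuroendocrine markers, which some prostate cancers gain under antiandrogens, were listed together with regulators such as HES6 and EZH2. These 16 genes summed to 249.7 to 276 CPM in ENZA and 369 to 371 CPM in DMSO, a gap mostly of HES6. CHGA and CHGB had at most 1 count over a group. Of 10 tested, 1 rose, 2 fell and 7 did not pass. Among all genes tested, 18.2% rose and 18.1% fell. ENO2 rose (0.47 ± 0.053), while HES6, a proneural regulator, had 69.0, 80.7 and 75.2 CPM in ENZA, against 187, 180.3 and 184 CPM in DMSO (-1.29 ± 0.050, edgeR adjusted p = 4.66e-17), and EZH2, the polycomb methyltransferase, fell by 0.64 ± 0.078. The mesenchymal markers summed to 549 to 557 CPM in ENZA and 1020.4 to 1044 CPM in DMSO, mostly FN1, the gene of fibronectin (-0.95 ± 0.034), with 1 of 12 markers at 0 in all 6 libraries. Of 9 tested, 1 rose, 3 fell and 5 did not pass: the intermediate filament gene VIM rose by 0.31 ± 0.085, and the mesenchymal transcription factor TWIST1 fell by 1.56 ± 0.093.

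Set directly against these compounds, ENZA differed in fewer genes from 2-77 than from P-16. Against 2-77, 855 genes (5.54%) passed, 401 higher (2.60%) and 454 lower (2.94%) with ENZA than with 2-77, and 13 and 38 of them by at least 2-fold. The count depended on single libraries: it was 555 without ENZA replicate 1, 499 without 2-77 replicate 1 and 560 without 2-77 replicate 2. Against P-16, 3293 genes (21.4%) passed, 1593 higher (10.3%) and 1700 lower (11.0%) with ENZA, and 48 and 124 by at least 2-fold. P-16 had the dose of ENZA and 2-77 a lower one, so the contrast with 2-77 is also one of doses, and the values are shown for what was sequenced.

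Counts over the lists differed between these direct contrasts. Against 2-77, 0 of 40 mitotic genes passed in edgeR, while 2 were higher and 2 lower at an unadjusted p under 0.05 and DESeq2 called 1 lower. Of 21 G1 to S regulators 0 passed in edgeR, while 1 was higher and 2 lower at an unadjusted p under 0.05 and DESeq2 called 1 higher. Over all genes tested 5.54% passed against 2-77, so counts of 0 in short lists say little. MKI67 had a difference of 0.02 with a 95% interval (SE times the t quantile for 12 degrees of freedom) of -0.07 to 0.11, and PMEPA1 one of -0.01 with an interval of -0.09 to 0.07. Of 63 androgen-induced genes 15 were higher and 3 lower with ENZA, against 2.60% and 2.94% of all genes tested. The higher ones included KLK2 (0.40 ± 0.040) and TMPRSS2 (0.53 ± 0.037), with edgeR adjusted p of at most 1.69e-08. KLK2 had 63.3, 64.2 and 62.9 CPM with ENZA, against 51.0, 46.5 and 46.2 CPM with 2-77, so these genes were low with both compounds and lower with 2-77.

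Against P-16, members of several lists were lower with ENZA. They were 34 of 63 androgen-induced genes, 26 of 40 mitotic genes and 22 of 24 integrated stress response genes. Of MYC targets and ribosome biogenesis genes, 17 of 30 were lower. Higher in edgeR were 6, 0, 0 and 0 members of these lists in turn. For the last 3 lists, 0 were higher also at an unadjusted p under 0.05 and in DESeq2. Over all genes tested, 11.0% were lower and 10.3% higher with ENZA than with P-16. KLK2 had 63.3, 64.2 and 62.9 CPM with ENZA, against 222, 222 and 219 CPM with P-16 (-1.80 ± 0.038, edgeR adjusted p = 2.98e-24). TRIB3 had 131, 131 and 127 CPM with ENZA, against 236, 245 and 238 CPM with P-16 (-0.89 ± 0.039, edgeR adjusted p = 1.18e-16). UGT2B15 was higher with ENZA than with 2-77 (0.46 ± 0.042) and than with P-16 (1.32 ± 0.044).

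Most members of the glycolysis and hypoxia list were lower with ENZA than with either compound. Of its 32 members, 26 were lower and 0 higher with ENZA than with 2-77 in edgeR (1 higher at an unadjusted p under 0.05, 0 in DESeq2), and 24 were lower and 2 higher than with P-16, against 2.94% and 11.0% of all genes tested that were lower. Relative to DMSO, which all 3 contrasts share, the list's median was 0.11 for ENZA, 0.46 for 2-77 and 0.46 for P-16. PFKFB3 and PFKFB4, which make the glycolytic activator fructose 2,6-bisphosphate, were picked after their values were seen. PFKFB3 had 37.3, 40.2 and 39.8 CPM with ENZA, against 98.9, 95.1 and 96.1 CPM with 2-77, 71.2, 75.0 and 71.0 CPM with P-16 and 37.9, 42.1 and 40.3 CPM in DMSO. ENZA libraries overlapped the DMSO libraries and lay below every 2-77 and P-16 library.

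The difference of ENZA from 2-77 was -1.30 ± 0.049 for PFKFB3 (edgeR adjusted p = 1.60e-17) and -1.11 ± 0.065 for PFKFB4 (adjusted p = 6.48e-13). VEGFA had 337, 308 and 318 CPM with ENZA, against 565, 559.9 and 551 CPM with 2-77 (-0.80 ± 0.039), 552, 566 and 578 CPM with P-16 (-0.82 ± 0.039) and 404, 417 and 415 CPM in DMSO, so that ENZA lay below DMSO and the other compounds above it. ENO2 was higher than DMSO with all 3 compounds, but lower with ENZA than with 2-77 by 1.00 ± 0.049. The count of 26 stayed between 23 and 26 when any library of the pair was left out.

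**Figure D4:**
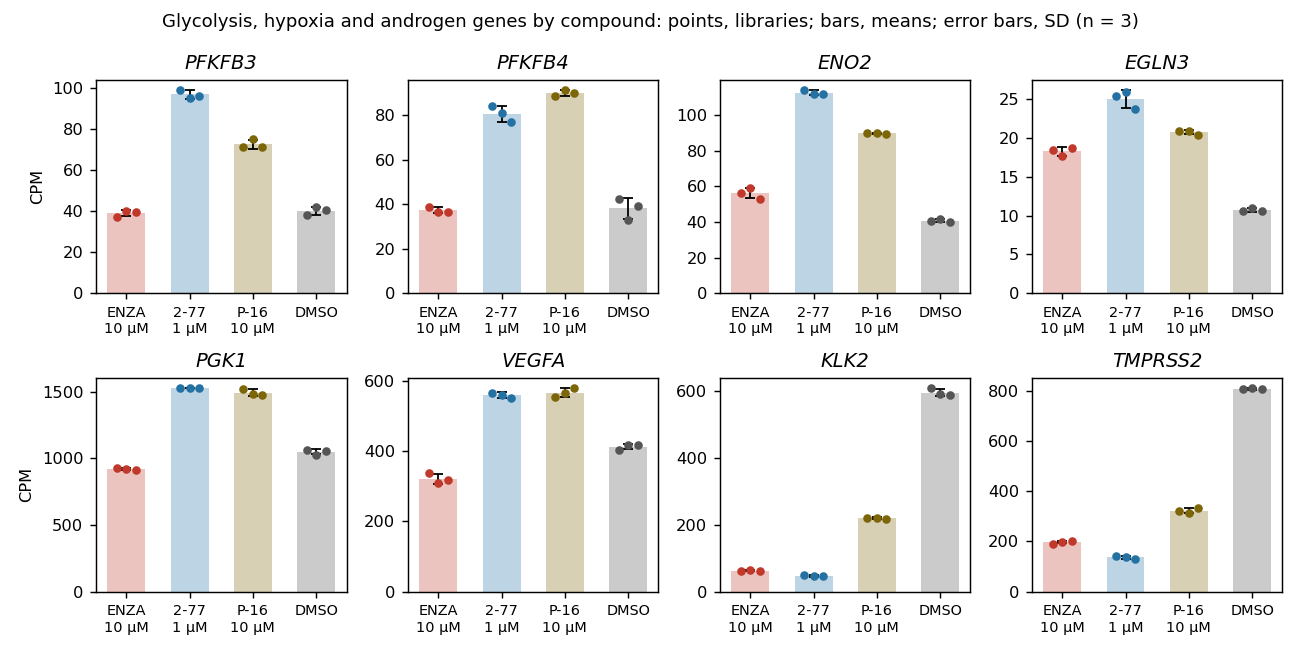
Level in CPM (y axis, from 0) of 6 glycolysis and hypoxia genes and 2 androgen-induced genes with ENZA, 2-77 and P-16 and in DMSO; points are libraries, bars means and error bars SD. In PFKFB3 and PFKFB4 the ENZA bars stand at the height of DMSO and below 2-77 and P-16, while in KLK2 and TMPRSS2 all 3 compounds are below DMSO.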

How the data were processed

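RNA of LNCaP cells was sequenced from a stranded messenger RNA kit in 18 libraries. Per the submitters' processing notes, STAR, Partek and DESeq2 were used with hg38; versions, the program that counted reads, its annotation and any filter are not given in the sources used here. The authors deposited expected counts (estimated counts of reads with decimals, unscaled, as the file shows) for 20145 genes, made from their alignments, and these were rounded to whole numbers. Columns named SCO277 were taken as 2-77 and PB_16, written PB16 in the labels' protocol, as P-16. No column was ignored (0 unused). A gene ends 1 base before its listed stop.

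Genes were filtered with filterByExpr over the 6 groups, which left 15422 and removed 4723. Library sizes were scaled by TMM, and a robust quasi-likelihood model in edgeR 4.0.16 (R 4.3.3) used all 18 libraries (12 residual degrees of freedom). The two-sided F test was adjusted by Benjamini-Hochberg over all genes tested, with a threshold of 0.05. The SE is the log2 fold change divided by the root of F. Totals ran from 16835113 to 36975052 counts per library, and 3 counts equal 0.0814 to 0.175 CPM; reads carry no molecular identifiers. ACBI replicate 3, part of the joint fit, had 8.6% ribosomal RNA.

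The genes named were the 12 largest rises and falls at 4 CPM or more in the higher group without overlap of the groups, the 4 members of each list with the smallest p, and a panel, leaving out genes with only a clone name; not all of the 150 are printed, and some items are not reported here. Members, lists and tests were chosen with earlier results of these data known. The lists come from textbook knowledge. Alternatives were RLE factors, library totals, no filter or a stricter one, a replicate block, a minimum fold, fits of fewer groups, each library left out, and DESeq2 1.42.0. The fit was tested on simulated counts. Promoter windows came from RefSeq. Plots used Python 3.11.15 with matplotlib 3.10.9.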

Additional observations from a re-analysis of the deposited data

How the results depend on the processing

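The direction of the 150 named genes held in all 15 alternatives run for ENZA against DMSO, except for BRD7, which did not pass in the main test (0.02) and ranged from -0.0190 (without DMSO replicate 3) to 0.0537 with 1 library left out; 114 kept their call in every setting. A minimum fold of 1.2 left 1799 genes, 891 higher and 908 lower, because it asks for larger changes. Leaving out 1 library at a time gave 4740 to 4976 genes (2373 to 2496 higher, 2354 to 2480 lower). For ENZA against 2-77 it gave 499 to 947 genes (221 to 490 higher, 278 to 457 lower), and for ENZA against P-16 2348 to 2778 (1069 to 1305 higher, 1279 to 1481 lower). DESeq2 called 5227, 922 and 3148 genes for DMSO, 2-77 and P-16. Libraries share only a number: residuals of same-number ENZA and DMSO libraries correlated at -0.00392, 0.0166 and -0.0444, and a replicate block gave 5466, 758 and 3156 genes. A fit of only the ENZA and DMSO libraries gave 6380 genes, and one without the libraries of ACBI, another compound of the series, 6035. Among lists, the falls in ribosome biogenesis and cholesterol and the rises in antigen presentation and the respiratory chain are small in size and mostly did not pass the minimum fold (2, 3, 2 and 0 genes). Genes under about 1 CPM rest on few reads, and their fold changes are less certain than those of KLK3.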

Other observations

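Some genes of the nuclear-encoded respiratory chain rose by small amounts. Of 30 genes tested, 13 rose, 1 fell and 16 did not pass, with a median of 0.11, against 18.2% of all genes tested that rose; UQCRB (0.25 ± 0.054) and UQCRC2 (0.20 ± 0.038) of complex III, SDHC (0.17 ± 0.035) of complex II and NDUFS1 (0.16 ± 0.033) of complex I had the smallest p. The count was 8 without ENZA replicate 1 and 8 without DMSO replicate 2, and 0 beyond 1.2-fold. In MHC class I antigen presentation, 8 of 17 rose and 3 fell. B2M, the light chain of class I molecules, picked after its values were seen, fell by 0.26 ± 0.039. TAPBP, which loads peptides, had 112, 117 and 117 CPM in ENZA, against 80.9, 86.2 and 88.0 CPM in DMSO (0.44 ± 0.046), and HLA-B rose by 0.30 ± 0.044, with reads of its near-identical relatives possibly mixed in. Of 29 interferon-stimulated genes tested, 5 rose, among them ISG15 (0.35 ± 0.069), 2 fell and 22 did not pass. Among all genes tested, 18.2% rose and 18.1% fell.

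Transcription factors of the ETS family moved by gene, with 3 of 13 higher and 5 lower. The shares over all genes tested, also for the lists that follow, were 18.2% higher and 18.1% lower. SPDEF, the prostate epithelial factor that is also on the androgen-induced list, had 99.997, 102 and 96.6 CPM in ENZA, against 177, 162 and 176 CPM in DMSO (-0.78 ± 0.058), and EHF fell by 0.45 ± 0.039, while ELF1 rose by 0.40 ± 0.055 and ELF3 by 0.33 ± 0.046. Of 16 AP-1 and immediate-early genes 1 rose and 5 fell: FOSL2 had 74.5, 74.6 and 74.7 CPM in ENZA, against 38.2, 42.2 and 43.8 CPM in DMSO (0.85 ± 0.052), and FOS fell by 1.37 ± 0.191. Of 15 long noncoding RNAs tested, 5 rose, 6 fell and 4 did not pass. ARLNC1, an androgen-regulated RNA, had 0.939, 0.732 and 0.695 CPM in ENZA, against 5.01, 4.35 and 5.08 CPM in DMSO (-2.62 ± 0.201), PCAT1 fell by 0.59 ± 0.067 and SNHG1 by 0.67 ± 0.047. MALAT1, a nuclear RNA picked after its values were seen, had 735, 858 and 880.5 CPM in ENZA, against 400.2, 459.6 and 453 CPM in DMSO (0.91, edgeR adjusted p = 4.53e-05).

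CXCR4, the chemokine receptor on the androgen-repressed list, was picked after its values were seen. It had 0.986, 0.787 and 0.695 CPM with ENZA, against 5.61, 4.53 and 5.61 CPM with 2-77, 3.38, 3.30 and 3.96 CPM with P-16 and 1.75, 1.16 and 1.74 CPM in DMSO. ENZA lay below DMSO and the other 2 compounds above it, and ENZA differed from 2-77 by -2.68 ± 0.213 and from P-16 by -2.10 ± 0.228 (log2, edgeR adjusted p = 2.07e-10 and 4.23e-08). STC1, a hypoxia-inducible hormone gene chosen in the same way, had 6.90, 6.29 and 7.27 CPM with ENZA, against 16.3, 16.9 and 16.7 CPM with 2-77, 29.4, 26.5 and 30.0 CPM with P-16 and 6.87, 6.07 and 8.38 CPM in DMSO.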
